A study of Mus musculus with 10 samples.

Results

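Heat shock proteins and their DnaJ cochaperones were examined in right atrial RNA-seq libraries of adult mice. The genes were taken by symbol: every entry of the deposited gene table that belongs to the Hspa, Hspb, Hspd, Hspe, Hsph, Hsp90, Dnaja, Dnajb or Dnajc series, which gave 72 of 23337 genes. Of these, 64 had enough reads for the test between groups. The choice used names only and no measured value. Each library came from the right atrium of 1 mouse, with 4 mice labelled control and 6 labelled Tbx5 mutant. In the mutants, exon 3 of Tbx5, which encodes a T-box transcription factor of the atria, was to be excised by a tamoxifen-inducible Cre expressed from the ubiquitous R26 locus, so that the deletion was not restricted to cardiomyocytes. The labels give the same tamoxifen treatment for all mice, 0.167 mg per day for 3 days with killing 1 week later, a mixed strain, and an age of both 8 to 10 and 6 to 8 weeks. They call the controls only control, whereas the paper names mice with the R26 Cre allele as controls for its own atrial RNA.

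Chaperones of these families hold, fold or dismantle other proteins. Small heat shock proteins bind unfolding proteins without ATP, HSP70 proteins fold them in cycles of ATP hydrolysis that DnaJ proteins start and HSP110 proteins reset, and HSP90 and the chaperonins act on later or special clients. In cardiac muscle they are known for keeping sarcomere proteins folded under mechanical load, and a subset is transcribed on demand by heat shock factor 1.

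Several libraries went against their labels or stood apart. Tbx5 itself was at 184 to 224 CPM (read counts scaled to a common library size by the TMM method) in the controls and at 275 to 475 CPM in the mice labelled Tbx5 mutant, a log2 fold change of 0.94 (SE 0.15, edgeR quasi-likelihood test with Benjamini-Hochberg adjustment, adjusted p = 0.000495). The count covers the whole gene and does not separate transcripts with and without exon 3. All groups are therefore named by their labels. Xist, which is made from the inactive X, had 10149 and 7850 reads in controls M1 and M2, labelled male, but 5 and 14 in F1 and F2, labelled female, and the Y-linked Ddx3y ran the other way. In mutant M3, 38.9% of the counts fell on the ribosomal RNA gene Rn45s, against 0.268% to 1.49% elsewhere. Counts per library summed to 5703775 to 7095141. Outside Rn45s they summed to 3484550 in mutant M3 and to 5701477 to 7060935 in the other libraries. The atrial light chain Myl7 was at 5230 to 7560 CPM in the controls and at 738 to 1310 CPM in the mutants. Of 6 genes listed as atrial cardiomyocyte markers, 3 were called lower (Myl7, Nppa and Sln) and 1 higher (Tnnt2). Myl4 was lower with a fold under 1.5 (log2 fold change -0.44, adjusted p = 0.0217), and Myh6 did not pass the test (0.10, adjusted p = 0.711). The sums over the 6 were 64000 to 76700 CPM in controls and 48700 to 62800 CPM in mutants. Summed over 4 ventricular cardiomyocyte markers, the level was 41.1 to 62.8 CPM in controls and 609 to 848 CPM in mutants, of which Myl3 made up 33.3 to 53.6 and 586 to 826 CPM, and 2 of the 3 tested were called higher. For 5 leukocyte markers the sums were 178 to 323 and 287 to 457 CPM, with Ptprc and Cd68 called higher. Lyz2 made up 159 to 295 and 232 to 409 CPM of these sums. It did not pass the test (log2 fold change 0.48, adjusted p = 0.0543). The lymphocyte markers Cd3e and Cd79a were at 6 reads or fewer in every library. For 3 markers of cycling cells, all called higher, the sums were 9.07 to 22.7 and 56.9 to 218 CPM. The part of these differences in the chaperone results was not tested. In a bulk tissue, fewer cells of a type and less RNA per cell cannot be told apart.

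Few of the chaperones changed between the groups. To be called, a gene needed an adjusted p under 0.05, a change of more than 1.5-fold and a mean normalised signal above 1 in controls. By this rule 3 of the 64 chaperones tested were higher in the Tbx5 mutants (4.69%), beside 8.5% of all 13084 genes tested. These were Hspb6, Hspb1 and Dnajb5. Another 2 were lower (3.12%), beside 7.16% of all genes, namely Hspa4l and Dnajb6. With mutant M3 left out, the library rich in Rn45s, 3 were higher and 4 lower, Dnajb9 and Hsph1 joining. Without the fold threshold, 8 were higher (12.5%) and 7 lower (10.9%), beside 16.3% and 15% of all genes. All mutant mice lay above all controls for 6 chaperones (9.38%) and below them for 3 (4.69%), beside 11.7% and 11% of all genes. The shares of chaperones were thus below the background by each of these rules, a difference that was not itself tested. The median log2 fold change of the 64 was 0.10, with a range from -0.66 to 1.16, and that of all genes tested was -0.00495.

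**Figure D1:**
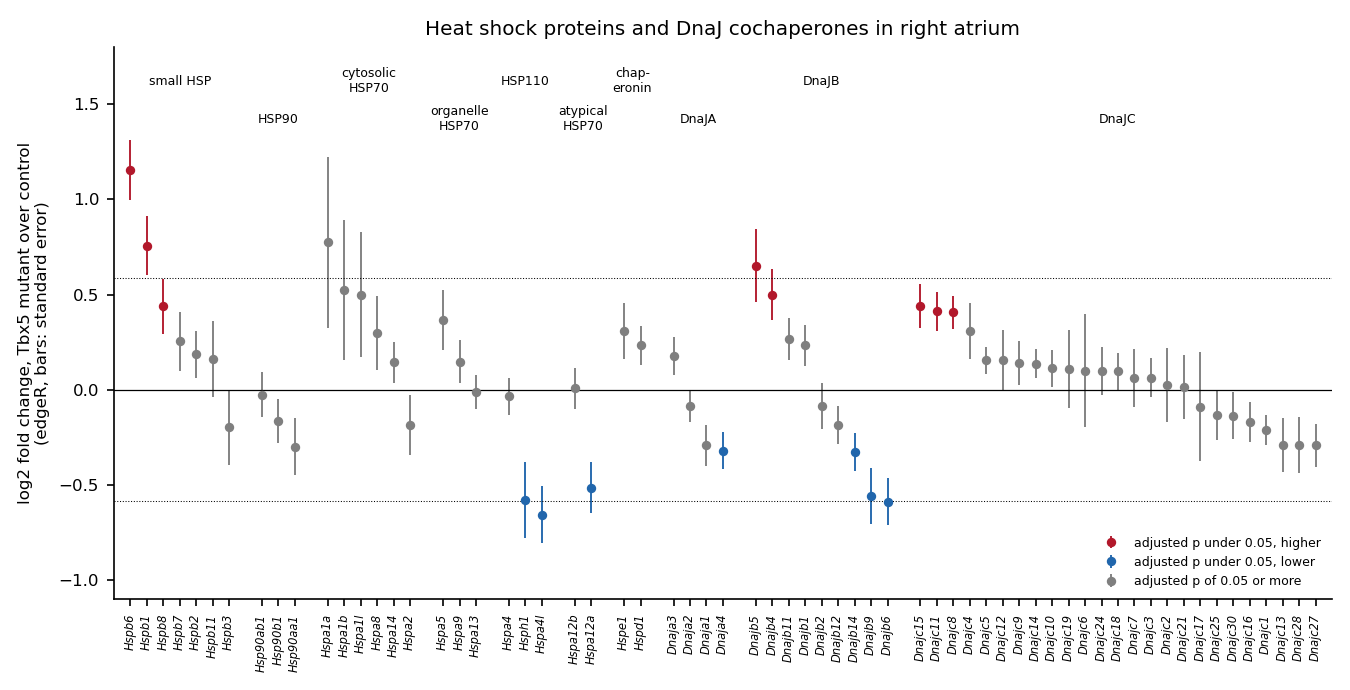
Log2 fold change of the 64 chaperones tested, Tbx5 mutant over control, by role, from the edgeR fit over 4 control and 6 mutant mice. Bars are standard errors and dotted lines mark a fold change of 1.5. Most points lie between the dotted lines, with Hspb6 at the top at 1.16 and Hspa4l at the bottom at -0.66.

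Promoter sequence was available from RefSeq (GRCm38.p6, 250 bases before to 50 after each start site) for 58 of the 72 genes. Heat shock factor binds alternating inverted GAA units. A row of 3 such units, GAANNTTCNNGAA on either strand (the other strand reads TTCNNGAANNTTC), was found in 4 of the 58 genes (6.9%) and in 0.603% of all 32851 promoters, or 0.662% of 27025 genes. The 4 were Dnajb6, Hsph1, Hspd1 and Hspe1. Pairs of units, GAANNTTC or TTCNNGAA, which are also contained in the longer element, were found in 16 of the 58 (27.6%), beside 17% of all genes. The stretches below are shown because they belong to called chaperones or to the chaperonin pair, with the units in capitals. That of Hspb6 lies at chr7:30553156-30553213, that of Hspb1 at chr5:135887777-135887854 and that of Dnajb6 at chr5:29735844-29735872, all on the forward strand. Hspd1 and Hspe1, which lie head to head on chromosome 1, share the element at chr1:55088053-55088082, given on the strand of Hspe1.
Hspb6: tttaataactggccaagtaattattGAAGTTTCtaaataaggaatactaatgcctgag
Hspb1: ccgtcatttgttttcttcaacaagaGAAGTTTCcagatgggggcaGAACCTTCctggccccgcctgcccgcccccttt
Dnajb6: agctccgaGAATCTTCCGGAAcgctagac
Hspe1 and Hspd1: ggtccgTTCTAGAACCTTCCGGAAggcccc

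The genes that carry the longest element did not share a direction. Dnajb6 was called lower, Hsph1 was lower with a fold change just under 1.5, and Hspd1 and Hspe1 did not pass the test. The copy in Hsph1 lies after the start site. No exact row of 3 units was found for Hspa1a, Hspa1b or Dnajb1, which heat induces. The genes with this element therefore do not stand for all heat-inducible chaperones. The element of unfolded protein stress in the endoplasmic reticulum, CCAAT and CCACG with 9 bases between them, was found in 3 of the 58 genes (5.17%) and in 0.137% of all genes. It stood in Hspa5, Hsp90b1 and Dnajc3, none of which passed the test. The Hspa5 copy, at chr2:34772020-34772048 on the forward strand, is given with the element in capitals.
Hspa5: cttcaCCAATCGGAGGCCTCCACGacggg
The core site of T-box factors, AGGTGT on either strand, was found in 8 of the 58 genes (13.8%) and in 15.7% of all genes. Among the called chaperones, Hspb6 and Dnajb5 held it, the latter at chr4:42949641-42949696 on the forward strand.
Dnajb5: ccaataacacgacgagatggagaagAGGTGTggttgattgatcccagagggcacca

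Among the small heat shock proteins, 3 of the 7 tested rose by adjusted p, where 16.3% of all genes did, and differences between families were not tested. Cryab, a related chaperone that the symbols leave out, was named after its values were seen. It went from 574 ± 122 CPM (SD, n = 4) to 481 ± 80.5 CPM (SD, n = 6). Its log2 fold change was -0.26 (SE 0.15, adjusted p = 0.219), and -0.48 (adjusted p = 0.0324) with gene length correction. Hspb6, also called HSP20, is known for a role in the relaxation of smooth muscle and in the stress response of heart muscle. It was at 34.7, 50.8, 65.8 and 59 CPM in controls M1, M2, F1, F2 in this order, the order used from here on, and ran from 95.6 to 133 CPM in the mutants with a median of 118 CPM. Every mutant lay above every control. The means were 52.6 ± 13.4 CPM (SD, n = 4) and 117 ± 15.4 CPM (SD, n = 6), a difference larger than either SD. Hspb6 had a log2 fold change of 1.16 (SE 0.16, 2.23-fold, adjusted p = 0.000134), the largest of the 64 in either direction (two-sided exact permutation test over 210 ways to draw 4 of 10 mice, p = 0.00952, the smallest this design allows). With any 1 mouse left out it stayed between 1.01 and 1.28. Hspb6 is also abundant in smooth muscle, and over 4 markers of smooth muscle and pericytes, of which Acta2 was called higher, the sums were 227 to 281 CPM in controls and 297 to 638 CPM in mutants. Acta2 made up 55.1 to 101 and 110 to 423 CPM of these, and the other 3 together, with 164 to 223 and 186 to 228 CPM, overlapped between the groups. Pdgfrb passed the test with a fold under 1.5 (0.41, adjusted p = 0.0137). Myh11 (0.23, adjusted p = 0.552) and Rgs5 (-0.22, adjusted p = 0.181) did not pass. The markers' part in the difference was not tested. Hspb6 (ENSMUSG00000036854.14) spans 30552178 to 30555443 of chromosome 7, forward strand, in GENCODE M21 on GRCm38, and its exons overlap those of Proser3 on the opposite strand by 122 bases.

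Hspb1, the HSP25 of the mouse, guards actin filaments and is also transcribed after heat. Its controls were at 34.7, 30.3, 37.9 and 47.1 CPM, and its mutants ran from 45.1 to 79.5 CPM with a median of 64.6 CPM. The groups overlapped through mutant M1 alone, which lay just below control F2. From 37.5 ± 7.13 CPM (SD, n = 4) Hspb1 rose to 63.7 ± 12.2 CPM (SD, n = 6), a log2 fold change of 0.76 (SE 0.16, adjusted p = 0.0026, two-sided exact permutation p = 0.019). Of the 50-base runs in its transcript, 51.6% also occur in other genes, foremost the pseudogene Hsp25-ps1, and how the authors counted reads shared with copies is not given in the sources used here. Hspb1 (ENSMUSG00000004951.10) lies on chromosome 5 from 135887919 to 135889563 on the forward strand.

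Hspb8, a partner of BAG3 in the clearance of damaged filaments, rose with a fold change under 1.5. It was at 203, 188, 259 and 308 CPM in the controls and at 260 to 385 CPM in the mutants (median 321 CPM), with control F2 inside the mutant range. Hspb8 had a log2 fold change of 0.44 (SE 0.14, adjusted p = 0.0331, exact permutation p = 0.019), and it missed the test with 6 of the 10 mice left out in turn, the highest adjusted p being 0.102 without control M2. Hspb7, a small heat shock protein of heart muscle that binds sarcomere filaments, had a log2 fold change of 0.26 (SE 0.15, adjusted p = 0.227). Its controls fell apart by labelled sex, 398 and 405 CPM in M1 and M2 against 631 and 593 CPM in F1 and F2. Xist went against these labels, whereas in the mutants it followed them. Mutants M1 to M3 were at 491, 508 and 686 CPM and F1 to F3 at 626 to 668 CPM. The remaining small heat shock proteins tested had log2 fold changes from -0.20 to 0.19, and Hspb9, a testis gene, had too few reads.

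**Figure D2:**
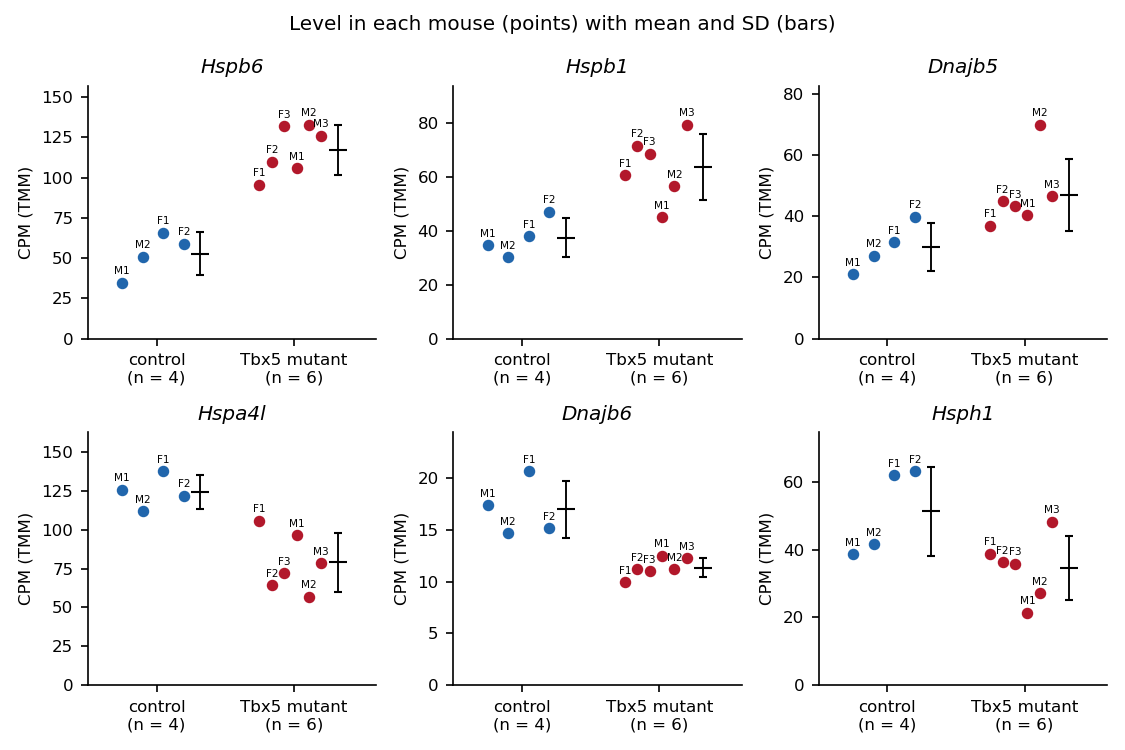
CPM in each mouse (points, with its label) for the 5 called chaperones and Hsph1, and mean with SD (bars), in 4 control and 6 Tbx5 mutant mice. Hspb6, Hspa4l and Dnajb6 show no overlap of the groups, and Dnajb5 has mutant M2 at 69.9 CPM, apart from the other mutants.

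The cytosolic HSP70 genes showed no call. Hspa8, the constitutive HSC70, was at 157, 161, 108 and 237 CPM in the controls and at 163 to 271 CPM in the mutants (median 186 CPM). Its log2 fold change was 0.30 (SE 0.19, adjusted p = 0.258), and without control F2 it was 0.53 with adjusted p = 0.0454. Of the 50-base runs of Hspa8, 52.7% also occur in other genes, foremost Gm15459. Hspa1a and Hspa1b, the strictly heat-inducible pair, were low. Hspa1a was at 1, 2.15, 3.29 and 7.99 CPM in the controls, the lowest value resting on 7 reads, and at 3.31 to 10.2 CPM in the mutants. The control value of mouse F2 exceeded 4 of the 6 mutants. The log2 fold change of Hspa1a was 0.77 (SE 0.45, adjusted p = 0.206), and it became 1.56 (adjusted p = 0.0174) without control F2. For Hspa1b it was 0.53 (SE 0.37, adjusted p = 0.295). Of the 50-base runs of Hspa1a and Hspa1b, 66.3% and 62.3% occur in other genes too, foremost in each other, so the split of reads between them is uncertain. Hspa2, best known from the testis, had a log2 fold change of -0.19 (SE 0.16, adjusted p = 0.392).

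HSP70 genes of organelles showed no call either. Hspa5, the BiP of the endoplasmic reticulum, was at 588, 532, 773 and 788 CPM in the controls and at 747 to 1140 CPM in the mutants, with a median of 791 CPM. Its log2 fold change was 0.37 (SE 0.16, adjusted p = 0.088), and it passed with sex as a covariate once the control labels were exchanged to follow Xist, an alternative added after the data were seen (0.37, adjusted p = 0.0144). The mitochondrial mortalin gene Hspa9 had 0.15 (SE 0.11, adjusted p = 0.343), and Hspa13 had -0.01.

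HSP110 proteins exchange the nucleotide of HSP70 and help to pull aggregates apart. Of the 3 genes of this family, 2 fell by adjusted p, where 15% of all genes did, and only Hspa4l was called. Hspa4l was at 126, 112, 138 and 122 CPM in the controls and at 56.9 to 106 CPM in the mutants, with a median of 75.2 CPM. No mutant reached the lowest control. The means fell from 125 ± 11.1 CPM (SD, n = 4) to 79.1 ± 19.1 CPM (SD, n = 6), a log2 fold change of -0.66 (SE 0.15, adjusted p = 0.00529, exact permutation p = 0.00952). It stayed between -0.76 and -0.57 with any mouse left out and missed the fold threshold without mutant M2. Hspa4l (ENSMUSG00000025757.12) lies on chromosome 3 from 40744495 to 40796103 on the forward strand, and its transcript of 9479 bases is the longest among the 64.

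Hsph1, the heat-inducible HSP105, was at 38.6 and 41.5 CPM in controls M1 and M2 and at 61.9 and 63.2 CPM in F1 and F2. Its mutants ran from 21.4 to 48.2 CPM with a median of 36 CPM, so that the lower controls stood within their range. The log2 fold change was -0.58 (SE 0.20, adjusted p = 0.0401, exact permutation p = 0.0667), just under the fold threshold. In 5 of the 10 fits with 1 mouse left out Hsph1 missed the test, the highest adjusted p being 0.131 without control F2. The third member, Hspa4, was at 235 to 264 CPM in the controls and at 210 to 284 CPM in the mutants (log2 fold change -0.03, SE 0.10, adjusted p = 0.807). Hspa12a, a distant relative of HSP70, was named after its values were seen: it went from 41.6 ± 9.45 CPM (SD, n = 4) to 29.2 ± 2.75 CPM (SD, n = 6), a log2 fold change of -0.51 (adjusted p = 0.0102).

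Of the 9 DnaJB genes tested, 2 were higher and 3 lower by adjusted p, beside 16.3% and 15% of all genes. Dnajb5, which binds class II histone deacetylases in heart muscle, was at 21.1, 27.1, 31.4 and 39.8 CPM in the controls. Its mutants ran from 36.9 to 69.9 CPM with a median of 44 CPM, and only mutant F1 lay below the highest control. For Dnajb5 the log2 fold change was 0.65 (SE 0.19, adjusted p = 0.019, exact permutation p = 0.019). Dnajb5 lost its call without control M1 (0.53, adjusted p = 0.064), without control M2 (0.62, adjusted p = 0.0536) and, through the fold threshold, without mutant M2, where it was 0.51. The gene (ENSMUSG00000036052.14) lies on chromosome 4 from 42949814 to 42959425 on the forward strand.

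Dnajb4, a cytosolic HSP70 partner close to Dnajb1, was at 123, 122, 150 and 143 CPM in the controls. Its mutants ran from 154 to 248 CPM (median 182 CPM), all above the controls. The log2 fold change was 0.50 (SE 0.13, adjusted p = 0.0119, exact permutation p = 0.00952), and it passed the test with any mouse left out. It missed the test among mice labelled female (0.15, adjusted p = 0.349) and passed among those labelled male (0.83, adjusted p = 0.0156). With the control labels exchanged to follow Xist, it passed for mutants labelled male (0.59, adjusted p = 0.0403) and female (0.40, adjusted p = 0.0245). Dnajb1, the HSP40 that heat induces, was at 27.3 to 32.6 CPM in the controls and at 30 to 42.7 CPM in the mutants. For Dnajb1 the log2 fold change was 0.23 (SE 0.11, adjusted p = 0.114).

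Dnajb6, a suppressor of protein aggregation whose human gene is mutated in a limb-girdle muscular dystrophy, was the called DnaJB gene that fell. It was at 17.4, 14.7, 20.7 and 15.2 CPM in the controls and at 9.94 to 12.5 CPM in the mutants, with a median of 11.2 CPM. All mutants lay below all controls. The log2 fold change was -0.59 (SE 0.12, adjusted p = 0.00302, exact permutation p = 0.00952), which is just past a fold of 1.5, and it moved between -0.64 and -0.48 with 1 mouse left out. It passed the test in all 10 of these fits but lost its call through the fold threshold in 6, without control M1 or F1 or mutant F1, F2, F3 or M2. Of its 50-base runs, 41.5% also occur in other genes, foremost Gm2541. Dnajb6 (ENSMUSG00000029131.14) lies on chromosome 5 from 29735688 to 29818134 on the forward strand.

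Dnajb9, the ERdj4 of the endoplasmic reticulum that unfolded proteins induce, was at 26.6, 37.2, 41.7 and 43 CPM in the controls and at 20.2 to 30.5 CPM in the mutants. Control M1 lay inside the mutant range. Its log2 fold change was -0.56 (SE 0.15, adjusted p = 0.0113, exact permutation p = 0.0286), opposite in sign to the 0.37 of Hspa5, its partner in that organelle. Dnajb9 alone passed the test among 6 DnaJ genes listed for the endoplasmic reticulum, the others being Dnajb11, Dnajc1, Dnajc3, Dnajc10 and Dnajc25. The list need not be complete. Dnajb14, which that list leaves out and which was named after its values were seen, had -0.33 (adjusted p = 0.0256) with no overlap of the groups.

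Of the 4 DnaJA genes, which are the general HSP40 partners of cytosol and mitochondria, 1 fell. Dnaja4 was at 129, 158, 154 and 169 CPM in the controls and at 112 to 137 CPM in the mutants (median 122 CPM). Its log2 fold change was -0.32 (SE 0.10, adjusted p = 0.0211), lost in 4 of the 10 fits with 1 mouse left out with adjusted p up to 0.0803 without control F2. Its exons overlap those of Wdr61 on the opposite strand by 1581 bases, and whether the counts used strand is not given, so that reads of both genes may be mixed. Dnaja1 had -0.29 (SE 0.11, adjusted p = 0.0539, exact permutation p = 0.0476).

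The DnaJC proteins share little beyond the J domain. Of 25 tested genes 3 rose by adjusted p, where 16.3% of all genes did. These 3 are named after their values were seen. Dnajc8, whose protein is tied to splicing, went from 40.9 ± 2.05 CPM (SD, n = 4) to 54.3 ± 4.47 CPM (SD, n = 6), with a log2 fold change of 0.41 (adjusted p = 0.00367) and no overlap. Dnajc11 and Dnajc15, both of mitochondria, had 0.41 (adjusted p = 0.00892) and 0.44 (adjusted p = 0.0105). They were the members that passed the test among 6 mitochondrial DnaJ genes tested. Dnajc6, the neuronal auxilin that strips clathrin from vesicles, stayed near 1.41 and 1.5 CPM (log2 fold change 0.10, SE 0.29, adjusted p = 0.818).

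The HSP90 genes and the mitochondrial chaperonins did not pass the test. Hsp90ab1, the constitutive cytosolic form, was at 696, 591, 860 and 794 CPM in the controls and at 675 to 834 CPM in the mutants. Its log2 fold change was -0.03 (SE 0.12, adjusted p = 0.89) and changed sign with the scaling, to 0.01 with upper-quartile factors. Hsp90aa1, the inducible form, had -0.30 (SE 0.15, adjusted p = 0.145), and without control M2 it passed with adjusted p = 0.0409. Its 50-base runs occur to 58.5% in other genes too, foremost Gm12346. Hsp90b1, the form of the endoplasmic reticulum, had -0.16 (SE 0.11, adjusted p = 0.294). The chaperonin Hspd1 had 0.23 (SE 0.10, adjusted p = 0.0991) and its cap Hspe1 had 0.31 (SE 0.14, adjusted p = 0.119). Hspd1 shares 44.8% of its 50-base runs with other genes, foremost the pseudogene Hspd1-ps3.

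Levels were set side by side per kb of the longest transcript. In the controls Hsp90ab1 was the highest at 292 ± 46.6 CPM per kb (SD, n = 4), followed by Hspb7 at 183 ± 44.2, Hspa5 at 182 ± 35.3, Hsp90b1 at 159 ± 18.9, Hspa9 at 139 ± 16.2 and Hspb8 at 132 ± 30.3 CPM per kb. Hsp90ab1 lay above Hspb7 by more than either SD. Among the following 5, neighbours in this order differed by less than the larger of their SDs, except that Hsp90b1 lay just beyond it above Hspa9. Hspb6 stood at rank 18 of 72 with 26.6 ± 6.77 CPM per kb and reached 59.2 ± 7.79 CPM per kb in the mutants (SD, n = 6). The inducible Hspa1a and Hspa1b were at 1.22 ± 1.03 and 1.34 ± 0.663 CPM per kb, ranks 63 and 62. Too low for the test were Dnajb13, Dnajb3, Dnajb7, Dnajb8, Dnajc22, Dnajc5b, Dnajc5g and Hspb9, and Dnajb8 had no read in any library. A count of 0 allows up to 3 reads, which is 4.23e-05% to 5.26e-05% of a library with its Rn45s counts included, counting error only.

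**Figure D3:**
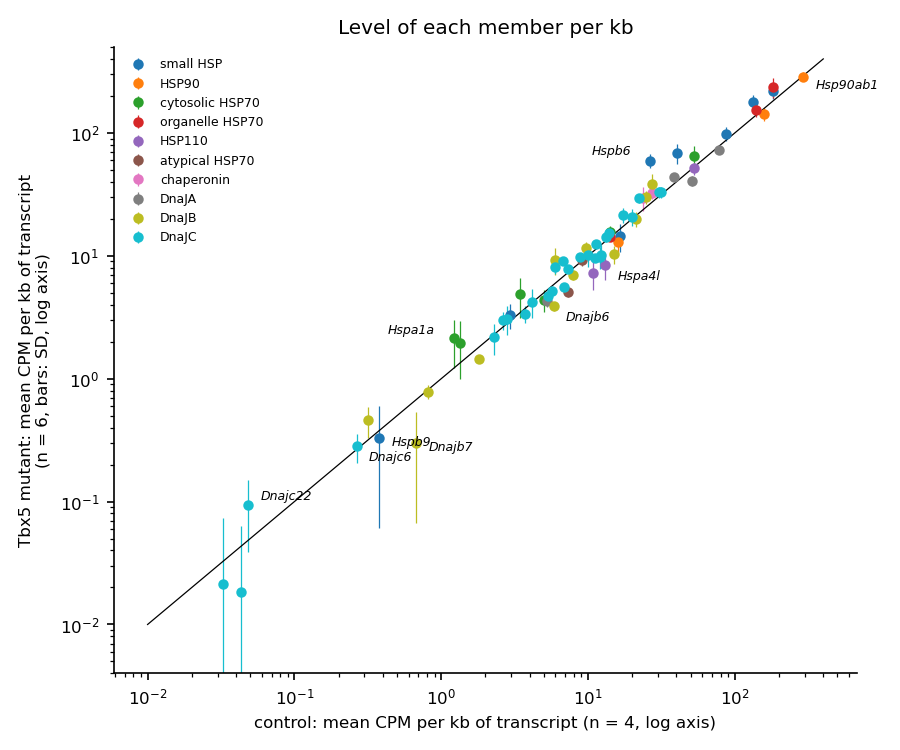
Mean CPM per kb of transcript of each chaperone in 6 Tbx5 mutant mice (vertical, bars are the SD) against that in 4 control mice (horizontal), both on log axes, coloured by role. The line marks equal levels, and 71 genes are drawn because Dnajb8 had no reads. Hspb6 lies above the line at 59.2 against 26.6 CPM per kb, and the levels span from below 0.1 to 292 CPM per kb.

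The classical heat-inducible set did not move as one. Of its 10 genes, which are Hspa1a, Hspa1b, Hspa8, Dnajb1, Dnaja1, Hsp90aa1, Hsph1, Hspb1, Hspd1 and Hspe1, Hspb1 rose and Hsph1 fell, and 8 did not pass the test. Their median log2 fold change was 0.27. Mouse by mouse, the mean of log2 CPM over the 10 genes, relative to the control mean, was -0.24, -0.18, 0.02 and 0.40 in controls M1, M2, F1 and F2. In mutants F1, F2, F3, M1, M2 and M3 it was 0.08, 0.15, 0.26, -0.06, 0.31 and 0.52. Control F2 thus lay above 5 of the 6 mutants. Of 7 genes of early response to handling or stress, 6 were tested and 4 rose by adjusted p, Fos, Junb and Atf3 with a call and Jun below the fold threshold, while Egr1 (0.38, adjusted p = 0.273) and Ier2 (0.29, adjusted p = 0.166) did not pass. The sum over the 7 was 69.6 to 94.1 CPM in the controls and 111 to 223 CPM in the mutants. Atf3 alone went from 2.57 to 6.09 CPM up to 14.2 to 85.5 CPM. Mutant M2, highest in Atf3, was also highest in Dnajb5, Dnajb4 and Hspa1a. Mutant M3, lowest of the mutants in Atf3, was highest of them in Hspb1, Hspa8 and Dnajb1 and in the mean over the 10 genes. The part of tissue handling in these values was not tested.

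**Figure D4:**
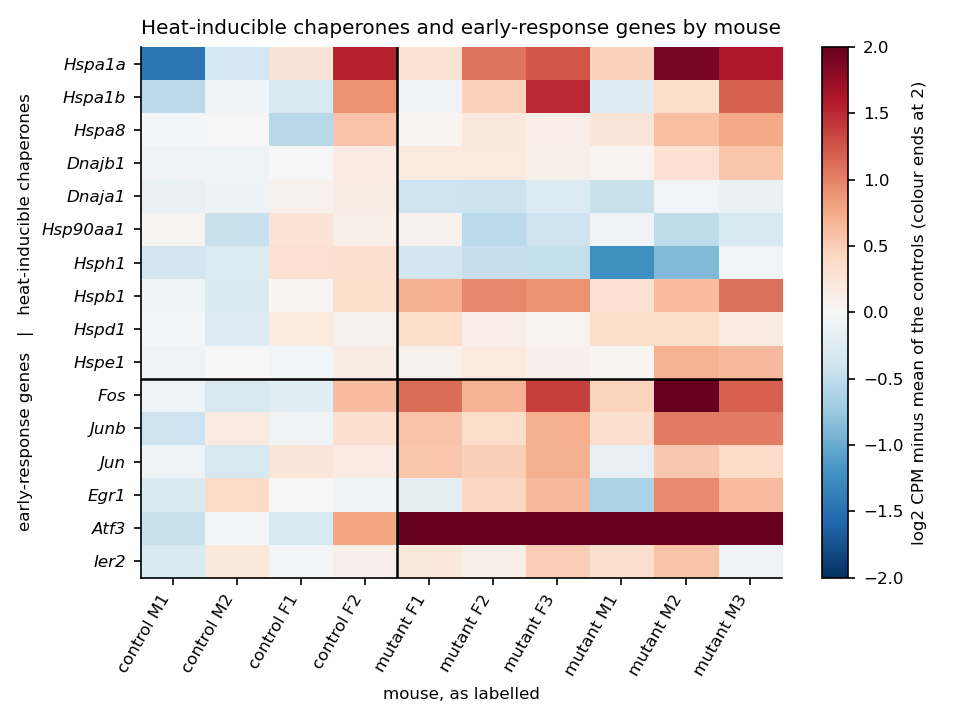
Log2 CPM minus the mean of the controls for 10 heat-inducible chaperones and 6 early-response genes (rows) in each of the 10 mice (columns), the colour ending at 2. Control F2 is red for Hspa1a, Hspa1b and Fos among the controls, Hspb1 is red in all mutants while Hsph1 is blue in most of them, and Atf3 is red in every mutant.

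Mice of each labelled sex were also compared alone, which the disagreement of Xist with the control labels touches directly. Hspb6 had a log2 fold change of 1.51 among mice labelled male and 0.85 among those labelled female. With the controls exchanged to follow Xist and Ddx3y, likewise added later, it was 0.98 for control F1 and F2 against mutant M1 to M3 and 1.41 for control M1 and M2 against mutant F1 to F3. Hspa5 had 0.80 among labelled males (adjusted p = 0.0312) and -0.05 among labelled females (adjusted p = 0.756), and 0.34 (adjusted p = 0.247) and 0.43 (adjusted p = 0.0247) after the exchange. Hspa1a had 2.26 and -0.12, and 0.40 and 1.75 after the exchange. In the interaction of labelled group and labelled sex, 0 of 64 chaperones had an edgeR adjusted p under 0.05 (lowest 0.118, Hspa5), beside 0.29% of all genes. At an unadjusted p under 0.05 there were 12 (18.8%), beside 10.4% of all genes. Xist went against the labels of the controls and followed those of the mutants. If the control labels are exchanged, this term adds up the sex differences within both groups. It therefore cannot show whether the difference between control and mutant depends on sex. The interaction was not fitted with the exchanged labels, and no other tool was run on it.

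Fold changes followed transcript length. Over 11868 genes with a length, log2 fold change and length had a Spearman correlation of -0.314, a description across genes that share the same libraries, so that short genes were the higher in the mutants. Among the called chaperones Hspb1 is short (930 bases) and Hspa4l long (9479 bases). When the length trend of each library was removed, which brought the correlation to 0.00448, the median log2 fold change of the 64 went from 0.10 to 0.01. The calls became Hspb6, Dnajb5, Dnajb4 and Dnajc15 higher, beside 8.07% of all genes, and Dnajb6 and Dnajb9 lower, beside 6.56%. Hspb6 kept 1.02 (adjusted p = 0.000171) and Dnajb5 0.76 (adjusted p = 0.0153). Hspb1 had 0.49 (adjusted p = 0.0145) and Hspa4l -0.40 (adjusted p = 0.03), both past the test but under the fold of 1.5. Hsph1 lost the test at -0.50 (adjusted p = 0.0851), Hspb8 at 0.29 (adjusted p = 0.095) and Dnajb14 at -0.06 (adjusted p = 0.722).

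**Figure D5:**
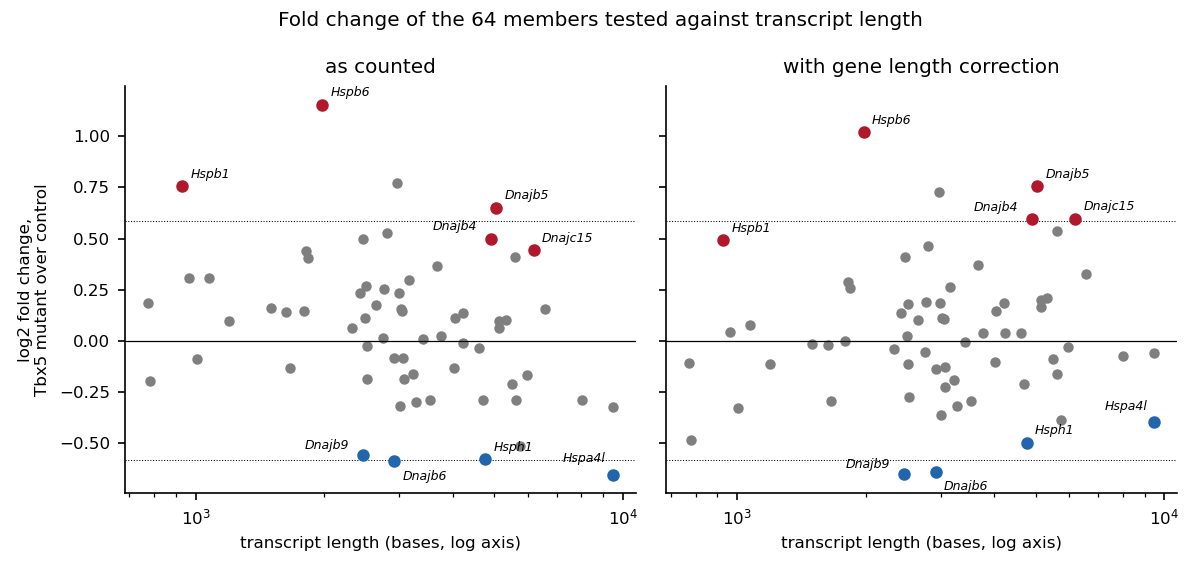
Log2 fold change of the 64 chaperones tested, Tbx5 mutant over control, against transcript length in bases (log axis), as counted (left) and after removal of each library's length trend (right). Dotted lines mark a fold of 1.5. Hspb1 at 930 bases and Hspa4l at 9479 bases move inside the dotted lines on the right, while Hspb6 stays at 1.02.

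Partners and regulators of the chaperones were counted from a list of 86 genes, of which 80 were tested. The called ones were 5 higher (6.25%, beside 8.5% of all genes), Pfdn1, Bag2, Atf4, Manf and Pfdn4, and 1 lower (1.25%, beside 7.16%), Hsf4. By adjusted p alone 12 were higher (15%, beside 16.3%) and 7 lower (8.75%, beside 15%), and the median log2 fold change was 0.07. The 5 called higher became 2 without control F1 or without mutant M2, and the 1 called lower became 0 without control F1 or F2. Hsf1, the main factor of the heat response, was at 21.3 ± 1.31 CPM (SD, n = 4) and 21.2 ± 1.93 CPM (SD, n = 6), a log2 fold change of -0.01 (SE 0.10, adjusted p = 0.926). Hsf4, a relative of Hsf1, went from 2.9 ± 1.04 to 1.37 ± 0.399 CPM, with a log2 fold change of -1.06 (SE 0.30, adjusted p = 0.0155).

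Among 20 HSP90 cochaperones 4 fell by adjusted p (20%, beside 15% of all genes). Unc45b, which folds myosin in striated muscle, had -0.47 (adjusted p = 0.0057), Tsc1 -0.44 (adjusted p = 0.0017), Fkbp4 -0.34 (adjusted p = 0.0272) and Ahsa2 -0.40 (adjusted p = 0.0292). Of 13 nucleotide exchange and release factors of HSP70, Bag2 (0.66, adjusted p = 0.00259) and the mitochondrial Grpel1 (0.41, adjusted p = 0.0116) rose. All 5 prefoldin genes tested had values above 0, and 3 passed, led by Pfdn1 at 0.73 (SE 0.09, adjusted p = 8.92e-05). Prefoldin genes are short, and with the length trend removed the median of the 5 went from 0.21 to 0.04. No partner gene was then called higher, although 4 of the 5 still passed the test with folds under 1.5, Manf at 0.58 (adjusted p = 0.0463), Bag2 at 0.52 (adjusted p = 0.00536), Pfdn1 at 0.49 (adjusted p = 0.000341) and Atf4 at 0.46 (adjusted p = 0.00262). Pfdn4 did not, at 0.40 (adjusted p = 0.139). In the list of folding and unfolded protein response in the endoplasmic reticulum, 6 of 22 rose by adjusted p (27.3%, beside 16.3% of all genes), Atf4 (0.60, adjusted p = 0.00182), Pdia6 (0.45, adjusted p = 0.0154), P4hb, Manf (0.70, adjusted p = 0.0274), Pdia4 and Atf6, and the stress sensor Ern1 fell (-0.36, adjusted p = 0.0218).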

How the data were processed

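Right atrial RNA-seq of 10 mice was analysed, 1 library per mouse, with groups taken from the labels (4 control, 6 Tbx5 mutant). The authors deposited 1 table with raw counts per gene and library and a normalised signal, each count divided by the library's DESeq2 size factor. Its remaining columns hold the authors' own DESeq2 comparison (mean, log2 fold change, standard error, statistic, p-values, fold change) and were not used. The submitters' processing notes name FastQC, TopHat2 2.0.11, featureCounts and DESeq2 with the build mm10. The labels describe both an mRNA kit and rRNA-depleted total RNA, and the strand setting of the counting is not given in the sources used here. Each of these steps can shift single genes: reads shared with pseudogenes or with a gene on the opposite strand cannot be assigned from the counts.

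Counts were tested with edgeR 4.0.16 in R 4.3.3 over all genes past its expression filter, with TMM scaling, a prior count of 0.125 and the quasi-likelihood test. Genes were called at Benjamini-Hochberg adjusted p under 0.05, fold change over 1.5 and mean deposited signal in controls over 1. The SE was computed by dividing the log2 fold change by the root of F. Exact permutation tests were two-sided over log2 CPM. The fit was tested on simulated data. Within groups, 21 pairs of libraries had a chi-square per degree of freedom of at least 3.99, so none was a repeat. Mice with the same label (M1, for example) did not deviate together (mean correlation -0.00712 over 4 pairs, 0.00129 over 20 others), and the labels name no shared litter, so the mice were not treated as pairs. P-values set the difference between the groups against the spread between these mice.

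Named with values were all called chaperones (up to 15 by adjusted p in each direction) and a fixed set of 24 by function. Of the partners, the called ones, up to 12 by adjusted p and Hsf1 were named, and Cryab was added after its values were seen. Genes, lists and rules were chosen with earlier results of these data known. Lengths, positions and shared 50-base runs came from GENCODE M21, using the longest transcript, and promoters from RefSeq. Length trends were removed by a lowess curve per library with a span of 0.4. Alternatives were other scalings (among them DESeq2 1.42.0 size factors and test), filters, limma 3.58.1, covariates, labelled sexes and each mouse left out.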

Additional observations from a re-analysis of the deposited data

Results flagged for a closer look

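Tbx5 and 31 chaperones, those named by function or past the test, were examined in each group of mice. In these 64 sets of values 2 had 1 mouse that stood apart from the rest by Dixon's criterion, where chance at 1 in 20 gives 3.2. Dnajb5 was at 69.9 CPM in mutant M2 (480 reads) and at 36.9 to 46.6 CPM in the other mutants. Hspa4 was at 264 CPM in control F1 (1687 reads) and at 235 to 239 CPM in the other controls.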

How the results depend on the processing

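Of 27 alternatives, 3 were added after the data were seen. Of the 15 chaperones past adjusted p 0.05, Hspb6 passed under every alternative that was run, and none of the 15 changed sign. The count of chaperones called higher (3) became 10 among mice labelled male, 7 for control mice labelled male against mutant mice labelled female, 8 without the fold threshold and 1 at a fold over 2, and ranged from 2 to 5 with 1 mouse left out (5 without control F2). The count called lower (2) became 1 with DESeq2 size factors, upper-quartile scaling, counts without Rn45s, a mean count of at least 50, limma, a prior count of 1, sex with the control labels exchanged, and control mice labelled male against mutant mice labelled female, because Dnajb6 or Hspa4l crossed the fold or test threshold. It was 7 without the fold threshold, 0 at a fold over 2, 0 among mice labelled male and 6 among those labelled female, and 1 to 4 with 1 mouse left out (4 without control M2 or mutant M3). With the label as a replicate block 4 were called lower, adding Dnajb9 and Hsph1, and 4 higher, adding Hspa1l. Tbx5 missed the test among mice labelled male (0.699, adjusted p = 0.0549). Sign changes were seen only in chaperones that had not passed. Hsp90ab1 was 0.006 with upper-quartile scaling, 0.157 among mice labelled male and 0.178 for control mice labelled male against mutant mice labelled female, and -0.111 to 0.058 with 1 mouse left out. Hspa4 was 0.008 with the replicate block, 0.039 with length removed, 0.077 with both, 0.017 among labelled males, and -0.090 to 0.009 with 1 mouse left out. Among labelled females Hspa1a was -0.125, Hspa5 -0.053 and Hspa9 -0.003. For control mice labelled female against mutant mice labelled male Hspa2 was 0.015 and Hspb7 -0.110, and for the opposite exchange Dnajc6 was -0.081, with -0.044 to 0.240 when 1 mouse was left out. The causes were not tested. Depth limits Hspa1a, Hspa1b and Dnajc6, at most at 10.2 CPM in any mouse.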
